A study of Homo sapiens with 6 samples.

Results

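The matrix glycoproteins, proteoglycans and crosslinkers examined here are 53 genes, chosen by symbol from the 31831 genes of the count table and excluding collagens and laminins. All of the libraries came from HK-2 cells, an immortalized human cell line derived from kidney proximal tubule, which is only a model of the tubule. Both groups were kept in medium with 30 mM glucose for 72 h. The HG-NC group (3 libraries) carried a control plasmid by its labels and a control lentivirus by the study's methods, and the HG-OE group (3 libraries) overexpressed HNRNPF, the gene of the RNA-binding protein hnRNP-F, from a lentiviral vector. Parallel culture wells of one cell line were used, so the p-values below measure the spread between these libraries. The comparison asked which of the matrix genes differ in level when hnRNP-F is raised in high glucose.

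Of the 53 members, all were listed in the count table and 48 had enough counts to be tested. The members moved in both directions. NID2, which links laminin to collagen IV in basement membranes, stood at 2.58 times its HG-NC level in HG-OE, and THBS2, a thrombospondin that restrains vessel growth, stood at 0.233 times. TNC, FBN1, FBN2, FBLN2, SPARC and LOXL1 were also higher in HG-OE, and CCN3, CCBE1, EMILIN2, BGN, PLOD2 and THBS1 were lower. The most abundant member, the cell surface proteoglycan SDC4, had 421 ± 9.63 FPKM in HG-NC and 404 ± 16.4 FPKM in HG-OE (mean ± SD, n = 3 libraries in each group; FPKM is a level scaled to gene length and depth).

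The extracellular matrix outside collagen is built from several kinds of protein. Microfibrils of fibrillin carry fibulins, emilins and microfibril-associated glycoproteins and store growth factors, while nidogens, perlecan and agrin tie together the sheet of laminin and collagen IV under an epithelium. Matricellular proteins such as thrombospondins, tenascins, SPARC and the CCN family do not build fibres but tune adhesion, growth factor release and fibril assembly. Syndecans and glypicans hold heparan sulfate at the cell surface, prolyl and lysyl hydroxylases modify collagen inside the cell, and lysyl oxidases then crosslink it outside. In the kidney, an increase of matrix around the tubules is the hallmark of fibrosis in diabetic kidney disease, and the tubule epithelium is one of its sources.

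The libraries held 25507595 to 29444841 counted read pairs, and HNRNPF stood at 311 ± 7.23 CPM (counts scaled to the normalized library) in HG-NC against 435 ± 14.9 CPM in HG-OE (mean ± SD over 3 libraries each). The 14 tubule epithelium markers listed, of 16, summed to 1249.5, 1318 and 1325 CPM in HG-NC and to 1525, 1571 and 2041 CPM in HG-OE. The cytokeratins KRT8 and KRT18 stood at means of 296 and 206 CPM in HG-NC and 755 and 349 CPM in HG-OE, and the kidney transcription factor PAX8 at 637 and 447 CPM. Of the brush border and transport genes, MME had 91 to 140 counts in HG-NC and 236 to 261 counts in HG-OE, SLC5A2 had 73 to 127 counts over all libraries, and LRP2, CUBN, SLC34A1, AQP1, GGT1 and ANPEP had at most 54 counts in any library. The part of these marker differences in the results was not tested. The fibroblast markers COL3A1 and PDGFRA had at most 10 counts in any library, and COL1A2 was at 0 in all libraries except HG-OE replicate 3, where it had 141 counts. PDGFRB had 16, 12 and 8 counts in HG-NC and 65, 64 and 59 counts in HG-OE. For TCF21 the counts were 1, 4 and 5 in HG-NC and 33, 40 and 34 in HG-OE. COL1A1, THY1 and ACTA2 had means of 12.7, 1.49 and 1.09 CPM in HG-NC and 10.9, 1.58 and 1.77 CPM in HG-OE. Summed over the 8 fibroblast markers, with COL1A1 the largest, the level was 15.7 to 16.4 CPM in HG-NC and 17.4 to 22.2 CPM in HG-OE. The sums were 79.1 to 81.3 CPM in HG-NC and 109 to 114 CPM in HG-OE for the 5 podocyte markers listed, 2.01 to 2.22 and 1.71 to 1.96 CPM for the 6 endothelial markers listed, and 9.91 to 10.9 and 8.48 to 19.3 CPM for the 7 leukocyte markers. The endothelial and leukocyte sums hold moves in both directions. From HG-NC to HG-OE, VWF went from 6 to 7 counts to 12 to 33 counts, and ROBO4 from 37 to 41 counts to 16 counts. CD14 went from 78 to 80 counts to 120, 141 and 428 counts in HG-OE replicates 1, 2 and 3. CSF1R went from 94 to 142 counts to 51 to 81 counts, and CD68 from 53 to 65 counts to 34 to 43 counts. The part of these cell types in the results was not tested.

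HG-OE replicate 3 stood apart from the other libraries. The albumin gene ALB had 4, 1 and 78 counts in HG-NC replicates 1, 2 and 3 and 0, 1 and 4359 counts in HG-OE replicates 1, 2 and 3, and KRT5 of squamous epithelium was at 0 in all libraries except HG-OE replicate 3, where it had 334 counts. The epithelial cadherin gene CDH1 had 2 to 10 counts in the other libraries and 384 counts in HG-OE replicate 3. When the counts of 2 libraries of 1 group were compared, chi-square per gene was 8.82 and 9.24 for the pairs of this library with its HG-OE replicates and 2.14 to 3.43 for the other pairs within a group. SERPINA1, counted among the 12 hepatocyte markers, stood at 275, 264 and 258 CPM in HG-NC and 457, 458 and 395 CPM in HG-OE. The other 11 hepatocyte markers summed to 1.85, 1.44 and 10.02 CPM in HG-NC and to 4.65, 4.88 and 279 CPM in HG-OE, and the 12 squamous markers listed summed to 5.11 to 6.19 CPM in HG-NC and to 3.96, 5.46 and 62.4 CPM in HG-OE. The part of these cells or RNAs in the results was not tested, and values without this library are given beside the results it changed most. Of the 41 members with a mean of at least 100 counts, 8 (19.5%) were at least 1.25 times as high in HG-OE replicate 3 as in the mean of replicates 1 and 2, against 4.003% of the 12365 genes at that depth. These were MATN3, LOXL4, EFEMP1, HSPG2, FBN2, LUM, THBS1 and NID1. At or under 0.8 times stood 1 of the 41 members, FREM2, and 2.33% of all genes at that depth.

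**Figure D1:**
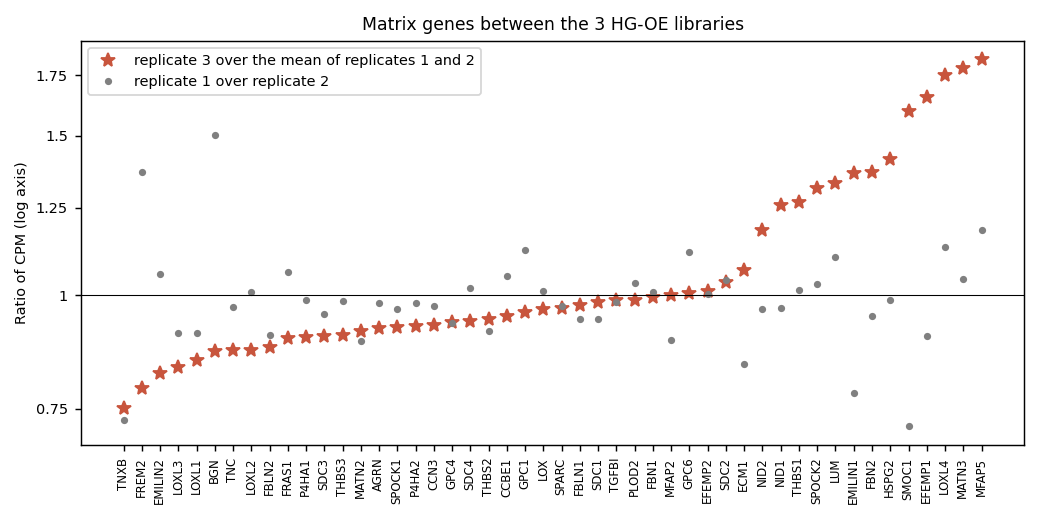
Ratio of CPM between HG-OE libraries for the 48 members tested (log axis), with replicate 3 over the mean of replicates 1 and 2 as stars and replicate 1 over replicate 2 as dots. The stars of MFAP5, MATN3, LOXL4, EFEMP1 and SMOC1 reach 1.5 and more, while most members lie near 1.

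For each of the 17142 genes tested, edgeR's quasi-likelihood test set HG-OE against HG-NC, and p-values were adjusted by Benjamini-Hochberg over all of them. A gene passed the test at an adjusted p under 0.05 and was called when it also differed at least 2-fold. Of the 48 members tested, 17 passed as higher in HG-OE and 17 as lower (35.4% each), against 25.9% of all genes in either direction (25.9% higher and 25.9% lower), and 14 did not pass. There were 3 members called higher (6.25%) against 3.69% of all genes, and 6 called lower (12.5%) against 2.13% of all genes. The groups did not overlap for 37 members (77.1%), against 59.0% of all genes. The median log2 fold change (HG-OE minus HG-NC) was -0.051 over the 48 members and 0.011 over all genes tested. In bulk RNA, a change in the number of cells that make a transcript and a change in its amount per cell cannot be told apart.

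Without HG-OE replicate 3, the counts at adjusted p were 17 higher (35.4%) and 20 lower (41.7%), against 26.7% and 27.2% of all genes. The calls were again 3 higher and 6 lower, against 3.60% and 2.63% of all genes, but they were not all of the same genes: SPOCK2 and PLOD2 fell out, and LOXL1 (higher) and THBS1 (lower) came in. The median over the 48 members was then -0.034. BGN, CCBE1, CCN3, EMILIN2, NID2, SMOC1 and THBS2 were called with and without that library.

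**Figure D2:**
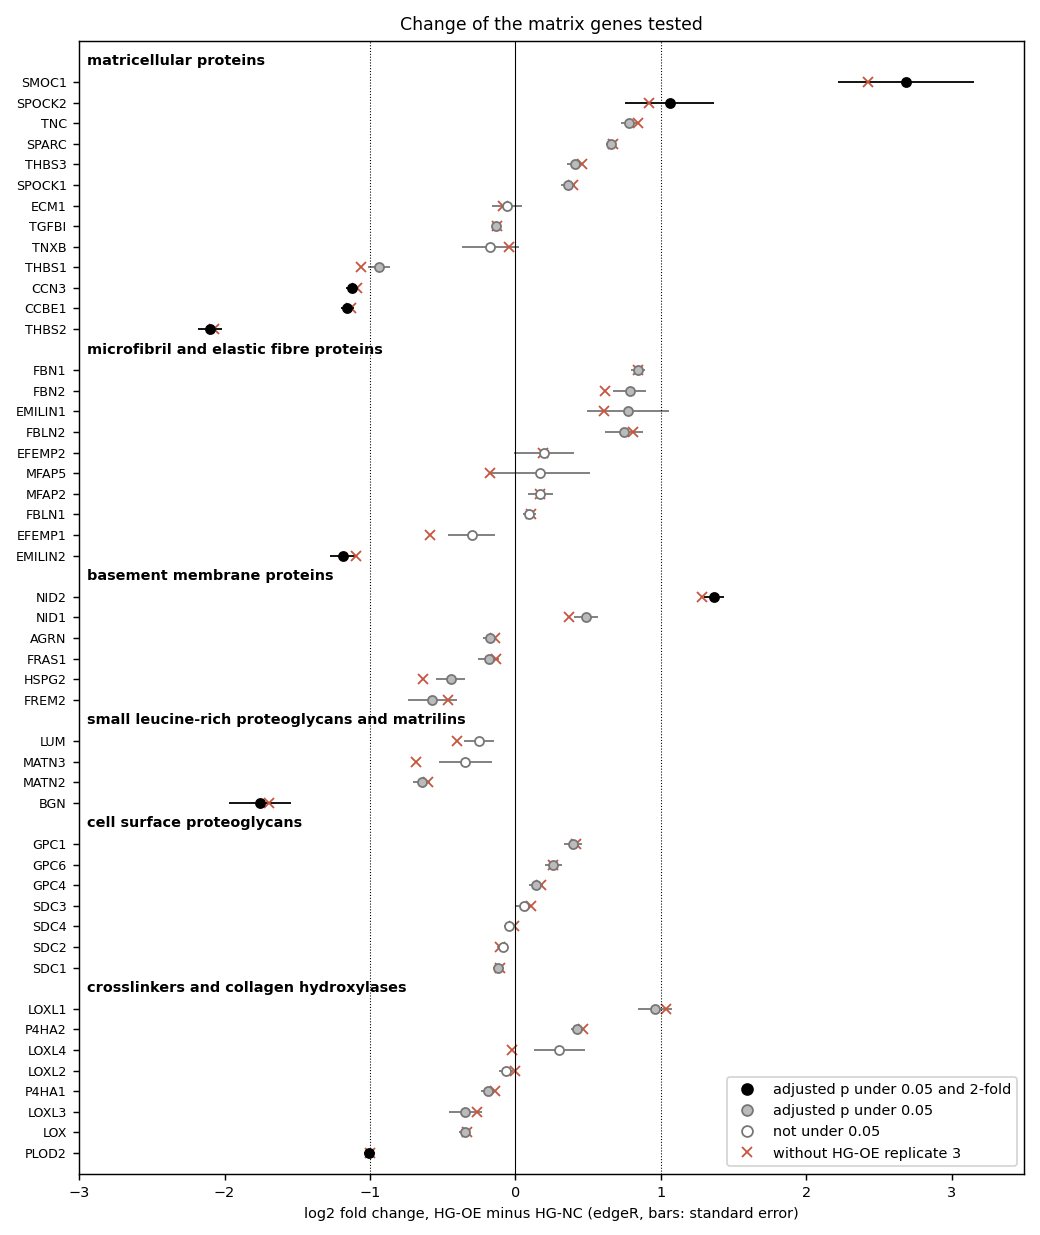
Log2 fold change (HG-OE minus HG-NC) of the 48 members tested, by role. Bars are a standard error derived from the statistic of the edgeR test, and crosses the value without HG-OE replicate 3. Black points passed the test and reached 2-fold (dotted lines), grey points passed the test only and open points did not pass; members lie on both sides of 0 in all roles except the small leucine-rich proteoglycans and matrilins, of which all 4 tested lie below it.

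Below, the values of single libraries are given in the order of replicates 1, 2 and 3. SE is a standard error derived from the edgeR test. It is the size of the log2 fold change divided by the square root of the test's F statistic. Leaving out HG-OE replicate 3 could lower the adjusted p far more than the SE. For HNRNPF the edgeR adjusted p was 2.80e-07 (SE 0.0388) with all libraries and 3.83e-17 (SE 0.0361) without that one. The p-values with and without it are therefore not to be compared. NID2 (chromosome 14, 52004809 to 52069059, minus strand) had 24.8, 26.5 and 25.5 CPM under HG-NC against 61.2, 63.3 and 73.5 CPM under HG-OE. The 3 HG-OE libraries all lay far above the 3 HG-NC libraries, and the log2 fold change was 1.37 (SE 0.0698, edgeR adjusted p = 5.17e-09). The gene overlaps RTRAF on the opposite strand over 5886 bases, and whether counting used the strand is not stated. RTRAF itself had a log2 fold change of 0.097 (edgeR adjusted p = 0.0704). In an exact permutation test over libraries, each comparison whose groups did not overlap gave p = 0.1, the smallest that 3 libraries against 3 allow.

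Promoters are shown for called members whose start agreed between annotations, to let their sequence be read beside their change. SMOC1 and THBS2, with the largest rise and fall, are not among them, as their starts differed. For NID2 and SPOCK2, called higher, and for EMILIN2 and BGN, called lower, the start of the gene is the same base in RefSeq and in GENCODE release 44, and the 250 bases before it are given 5′ to 3′ (RefSeq, GRCh38.p14). Capitals mark 6 short motifs searched on both strands: TGACTCA (bound by AP-1), GGAATG (bound by TEAD factors), ACGTG (the core of hypoxia response elements), GGGCGG (the GC box), CCAAT (bound by NF-Y) and TATAAA (the core promoter box).
NID2 (chr14:52069060-52069309, minus strand): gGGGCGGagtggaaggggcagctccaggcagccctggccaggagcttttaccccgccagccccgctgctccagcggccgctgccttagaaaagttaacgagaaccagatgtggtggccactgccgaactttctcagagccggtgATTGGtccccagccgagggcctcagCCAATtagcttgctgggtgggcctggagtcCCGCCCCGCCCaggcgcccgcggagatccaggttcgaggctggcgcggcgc
SPOCK2 (chr10:72089033-72089282, minus strand): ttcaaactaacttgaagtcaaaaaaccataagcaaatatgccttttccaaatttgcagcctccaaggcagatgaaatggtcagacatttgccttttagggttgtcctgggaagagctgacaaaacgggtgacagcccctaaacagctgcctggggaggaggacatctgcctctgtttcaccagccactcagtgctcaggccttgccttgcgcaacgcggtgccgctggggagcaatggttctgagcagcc
EMILIN2 (chr18:2846756-2847005, plus strand): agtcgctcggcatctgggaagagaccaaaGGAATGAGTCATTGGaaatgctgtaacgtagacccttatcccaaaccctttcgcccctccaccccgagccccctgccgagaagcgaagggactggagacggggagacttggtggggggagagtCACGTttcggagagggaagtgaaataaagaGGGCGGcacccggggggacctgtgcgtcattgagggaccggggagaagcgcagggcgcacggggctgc
BGN (chrX:153494730-153494979, plus strand): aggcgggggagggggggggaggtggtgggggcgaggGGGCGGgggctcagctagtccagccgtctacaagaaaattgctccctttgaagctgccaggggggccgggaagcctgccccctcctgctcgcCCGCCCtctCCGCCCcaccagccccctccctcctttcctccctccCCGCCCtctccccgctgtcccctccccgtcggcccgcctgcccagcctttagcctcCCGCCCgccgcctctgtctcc
In the EMILIN2 window the letters of the TEAD, AP-1 and NF-Y motifs overlap in 1 capitalized run. The capitals of BGN are 5 GC boxes, and those of NID2 are 3 GC boxes and 2 matches of CCAAT. The SPOCK2 window, with 51.6% G and C against a median of 58.0% over all windows, held none of the 6 motifs.

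Of the 53 members, 42 were matched by symbol in the RefSeq promoter table, including 8 of the 9 called and 30 others that were tested. ACGTG was found in 4 of 5 windows of members called lower (THBS2, CCBE1, EMILIN2 and PLOD2) and in 0 of 3 called higher. It was in 5 of 30 of the others, against 18.5% of all 35116 windows of the same length. Of the 4 called lower with ACGTG, only EMILIN2 has a start that agrees between RefSeq and GENCODE. The windows of THBS2, CCBE1 and PLOD2 lie largely or wholly inside the gene as placed by GENCODE. GGGCGG was found in 3 of 5, 2 of 3 and 20 of 30 windows, against 42.6% of all windows, and CCAAT in 2 of 5, 2 of 3 and 7 of 30, against 32.0%. GGAATG was found in 2 of 5, 0 of 3 and 5 of 30 windows, against 11.9%, TGACTCA in 1 of 5, 0 of 3 and 2 of 30, against 4.20%, and TATAAA in 1 of 5, 1 of 3 and 3 of 30, against 10.7%. These matches are a description of the letters in the windows, with no test.

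Among the 16 matricellular genes, 13 were tested. Of these 13, 6 passed the test as higher and 5 as lower, against 25.9% of all genes in each direction, and 2 did not pass. SPARC, a collagen-binding glycoprotein, was the most abundant of those that rose, with 104 ± 1.56 FPKM in HG-NC and 162 ± 3.27 FPKM in HG-OE (mean ± SD). Its libraries had 548, 532 and 532 CPM under HG-NC against 846, 868 and 829 CPM under HG-OE, and the HG-OE libraries were all higher. The log2 fold change of SPARC was 0.66 (SE 0.0349, edgeR adjusted p = 7.52e-09). TGFBI, an integrin-binding protein induced by TGF-beta, had 1069, 1094 and 1112 CPM under HG-NC against 992, 1009.7 and 988 CPM under HG-OE, so that the HG-OE libraries were lower by little but without overlap. Its log2 fold change was -0.13 (SE 0.0329, edgeR adjusted p = 0.00421). The order of these top members therefore changed, with TGFBI second after SDC4 among all members by mean FPKM in HG-NC and SPARC second in HG-OE.

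CCN3, a member of the CCN family that opposes some actions of CCN2, lies on chromosome 8, 119416446 to 119424434, plus strand. It had 165, 161 and 163 CPM under HG-NC against 75.7, 77.7 and 71.1 CPM under HG-OE. HG-OE lay far below HG-NC (0.459 times), and the log2 fold change was -1.12 (SE 0.0430, edgeR adjusted p = 4.68e-10). TNC, the tenascin of wounds and growing tissue, had 215, 227 and 224 CPM under HG-NC against 393, 405 and 347 CPM under HG-OE. All 3 HG-OE libraries were higher, HG-OE replicate 3 the least, and its log2 fold change of 0.78 (SE 0.0526, edgeR adjusted p = 6.18e-08) did not reach 2-fold.

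CCBE1 (chromosome 18, 59430939 to 59697662, minus strand) encodes a secreted protein needed for the processing of VEGF-C. Its libraries had 198, 188 and 184 CPM under HG-NC against 88.8, 84.6 and 82.2 CPM under HG-OE, with the groups well apart. The log2 fold change of CCBE1 was -1.16 (SE 0.0443, edgeR adjusted p = 4.68e-10). THBS2 (chromosome 6, 169215780 to 169254050, minus strand) had 32.1, 32.6 and 28.2 CPM under HG-NC against 7.03, 7.69 and 6.93 CPM under HG-OE. This was the largest fall among the members tested, with a log2 fold change of -2.10 (SE 0.0850, edgeR adjusted p = 6.40e-10). THBS2-AS1, annotated on the opposite strand over most of THBS2, had a mean of 75.2 counts per library.

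THBS1, the thrombospondin that activates latent TGF-beta, had 228, 245 and 240.2 CPM under HG-NC against 115, 113 and 144 CPM under HG-OE. HG-OE replicate 3 was the highest of its group and still below every HG-NC library. The log2 fold change of THBS1 was -0.94 (SE 0.0741, edgeR adjusted p = 2.39e-07), and without that library it was -1.06 and past 2-fold (edgeR adjusted p = 1.30e-27). THBS3, of the same family, moved the other way, with 39.8, 40.3 and 41.8 CPM under HG-NC against 55.3, 56.2 and 50.4 CPM under HG-OE and a log2 fold change of 0.41 (SE 0.0549, edgeR adjusted p = 3.08e-05). Thus THBS1 and THBS2 fell while THBS3 rose.

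SPOCK1 and SPOCK2 are testicans, proteoglycans related to SPARC. SPOCK1 stood at 95.9 ± 2.87 CPM in HG-NC against 123 ± 5.99 CPM in HG-OE (mean ± SD, 3 libraries each), with a log2 fold change of 0.36 (SE 0.0457, edgeR adjusted p = 1.83e-05). SPOCK2 (chromosome 10, 72059034 to 72089032, minus strand) was rare, with 25, 12 and 19 counts under HG-NC against 39, 38 and 51 counts under HG-OE. Its log2 fold change was 1.06 (SE 0.306, edgeR adjusted p = 0.0102), and it fell under 2-fold without HG-OE replicate 3 (0.92) or without HG-NC replicate 2 (0.82). SMOC1 (chromosome 14, 69854131 to 70032366, plus strand), a calcium-binding relative of SPARC that inhibits BMP signalling, was rarer still.

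The counts of SMOC1 were 2, 3 and 4 in HG-NC and 15, 21 and 29 in HG-OE. The log2 fold change was 2.69 (SE 0.468, edgeR adjusted p = 0.000288), the largest rise among the members tested, at a level of only 0.153 ± 0.0451 FPKM in HG-OE. HG-OE replicate 3 was highest, and without it the log2 fold change was 2.42 (edgeR adjusted p = 0.000253). ECM1 and the tenascin TNXB did not pass, with log2 fold changes of -0.06 (edgeR adjusted p = 0.676) and -0.17 (0.482).

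The 3 matricellular genes not tested were near the limit of detection. POSTN, the periostin of scarring tissue, had 1, 1 and 1 counts under HG-NC against 1, 1 and 2 counts under HG-OE. SMOC2 had 0, 0 and 0 counts under HG-NC against 2, 8 and 2 counts under HG-OE, where a 0 allows up to 3 counts in a library by counting error alone. THBS4 had 4, 3 and 3 counts under HG-NC against 7, 7 and 47 counts under HG-OE, with most of its counts in HG-OE replicate 3. No fold is given for these genes.

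**Figure D3:**
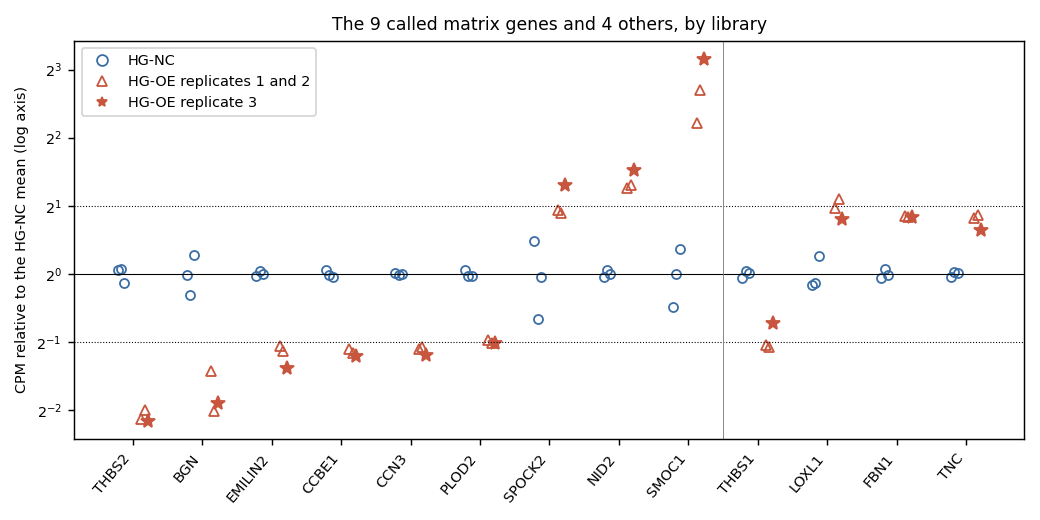
CPM of each library relative to the HG-NC mean (log axis with base 2) for the 9 called members and, right of the grey line, THBS1, LOXL1, FBN1 and TNC; circles are HG-NC, triangles HG-OE replicates 1 and 2, stars HG-OE replicate 3, and dotted lines 2-fold. The groups of all 13 genes are separate, and the stars lie above the triangles for SMOC1, NID2, SPOCK2 and THBS1.

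Of the 11 genes of microfibrils and elastic fibres, 10 were tested. Of these 10, 4 passed as higher and 1 as lower, against 25.9% of all genes in each direction, and 5 did not pass. Both fibrillins rose. FBN1 had 41.7, 45.8 and 43.1 CPM under HG-NC against 78.6, 77.9 and 77.9 CPM under HG-OE, and the 3 HG-OE libraries nearly coincided. The log2 fold change of FBN1 was 0.84 (SE 0.0482, edgeR adjusted p = 1.40e-08). FBN2, the fibrillin more typical of development, had 16.0, 14.4 and 15.5 CPM under HG-NC against 22.9, 24.1 and 32.2 CPM under HG-OE and a log2 fold change of 0.79 (SE 0.112, edgeR adjusted p = 5.25e-05), with HG-OE replicate 3 the highest. Without that library it was 0.62 (edgeR adjusted p = 4.21e-09).

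FBLN1, a fibulin, was the most abundant gene of this role, with 18.6 ± 0.723 FPKM in HG-NC and 19.7 ± 0.549 FPKM in HG-OE (mean ± SD). Its libraries had 151, 147 and 158 CPM under HG-NC against 159, 168 and 159 CPM under HG-OE, and its log2 fold change of 0.10 (SE 0.0422, edgeR adjusted p = 0.0719) did not pass. It passed without HG-OE replicate 3, at 0.11 (0.0246). FBLN2 rose from 3.94 ± 0.320 to 6.61 ± 0.605 CPM (mean ± SD, 3 libraries each), with a log2 fold change of 0.75 (SE 0.131, edgeR adjusted p = 0.000302). The fibulin-like EFEMP1 had 18.1, 16.1 and 15.8 CPM under HG-NC against 10.5, 11.6 and 18.3 CPM under HG-OE. HG-OE replicates 1 and 2 were below all HG-NC libraries and replicate 3 was above them, and the log2 fold change of -0.30 (SE 0.159, edgeR adjusted p = 0.129) did not pass. Without replicate 3 it was -0.59 (edgeR adjusted p = 5.76e-07).

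EMILIN2 (chromosome 18, 2847006 to 2916003, plus strand), a glycoprotein at the interface of elastin and microfibrils, had 23.5, 24.7 and 23.9 CPM under HG-NC against 11.5, 10.9 and 9.22 CPM under HG-OE. HG-OE lay below HG-NC in every library, and the log2 fold change was -1.19 (SE 0.0879, edgeR adjusted p = 1.45e-07). LPIN2, which overlaps EMILIN2 on the opposite strand over 30708 bases, had a log2 fold change of 0.054 (edgeR adjusted p = 0.607). EMILIN1, with 16, 23 and 19 counts under HG-NC against 28, 36 and 44 counts under HG-OE, passed as higher with a log2 fold change of 0.77 (SE 0.283, edgeR adjusted p = 0.0343). That result rested on few counts, and without HG-OE replicate 3 it was 0.61 (0.126). It also missed the threshold without HG-NC replicate 1, HG-NC replicate 3 or HG-OE replicate 2.

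The microfibril-associated glycoprotein MFAP2 had 25.2, 19.99 and 20.7 CPM under HG-NC against 23.3, 26.1 and 24.7 CPM under HG-OE, with overlapping groups and a log2 fold change of 0.17 (SE 0.0855, edgeR adjusted p = 0.112). It passed without HG-NC replicate 1, at 0.28. EFEMP2, a fibulin needed for elastic fibres, and MFAP5 did not pass, with log2 fold changes of 0.19 (edgeR adjusted p = 0.454) and 0.17 (0.700). For MFAP5 the value was -0.18 without HG-OE replicate 3. FBLN5 was not tested, with 4, 5 and 7 counts under HG-NC against 7, 8 and 20 counts under HG-OE.

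All 6 basement membrane genes passed the test, 2 as higher and 4 as lower, and the groups of each were separate. Of all genes tested, 25.9% passed as higher, 25.9% as lower, and 59.0% had separate groups. Without HG-OE replicate 3, 2 passed as higher and 3 as lower, against 26.7% and 27.2% of all genes. The 2 that rose were both nidogens. NID1 had 53.7, 60.5 and 56.3 CPM under HG-NC against 72.1, 74.4 and 92.2 CPM under HG-OE and a log2 fold change of 0.48 (SE 0.0800, edgeR adjusted p = 0.000187), and HG-OE replicate 3 was the highest library. Without it, the value of NID1 was 0.36 (edgeR adjusted p = 4.27e-08) and that of NID2 1.28 (1.04e-24). In FPKM, NID1 stood above NID2 in both groups, at 8.75 against 3.58 in HG-NC and 12.1 against 9.14 in HG-OE.

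HSPG2, the gene of the large heparan sulfate proteoglycan perlecan, had 166, 183 and 181 CPM under HG-NC against 114, 115 and 161 CPM under HG-OE. HG-OE replicate 3 lay close under the HG-NC libraries and the other HG-OE libraries far below them. The log2 fold change of HSPG2 was -0.45 (SE 0.102, edgeR adjusted p = 0.00225), and -0.63 without that library. AGRN, agrin, had 357, 386 and 393 CPM under HG-NC against 340.3, 347 and 317 CPM under HG-OE and a small fall, with a log2 fold change of -0.18 (SE 0.0463, edgeR adjusted p = 0.00529).

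FRAS1 and FREM2 encode partners of the complex that anchors embryonic epithelia. Their log2 fold changes were -0.19 (SE 0.0713, edgeR adjusted p = 0.0426) and -0.57 (SE 0.170, edgeR adjusted p = 0.0122). FREM2 was rare, at 0.263 FPKM in HG-NC, and did not pass without HG-NC replicate 2. FRAS1 did not pass without HG-OE replicate 3 (-0.13, edgeR adjusted p = 0.120), nor without HG-OE replicate 2, HG-NC replicate 1 or HG-NC replicate 2.

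Of the 5 small leucine-rich proteoglycans and matrilins, 4 were tested, and 2 passed as lower, against 25.9% of all genes. BGN (chromosome X, 153494980 to 153509546, plus strand), biglycan, which binds collagen and TGF-beta, had 4.40, 3.58 and 5.37 CPM under HG-NC against 1.65, 1.10 and 1.19 CPM under HG-OE. Every HG-OE library lay far below the lowest HG-NC library, and the log2 fold change was -1.76 (SE 0.214, edgeR adjusted p = 1.27e-05). LUM, lumican, a regulator of fibril spacing, had 25.6, 24.0 and 22.8 CPM under HG-NC against 19.2, 17.4 and 24.3 CPM under HG-OE. Its HG-OE replicate 3 lay among the HG-NC libraries, and the log2 fold change of -0.25 (SE 0.103, edgeR adjusted p = 0.0582) did not pass. Without replicate 3 it was -0.40 (edgeR adjusted p = 2.14e-05).

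MATN2, a matrilin that forms filaments around cells, had 50.2, 49.7 and 49.2 CPM under HG-NC against 30.8, 34.6 and 29.9 CPM under HG-OE and a log2 fold change of -0.65 (SE 0.0595, edgeR adjusted p = 1.01e-06). RPL30, a ribosomal protein gene of 15331 counts per library that overlaps it on the opposite strand, had 0.17. MATN3, known from cartilage, had 10.1, 10.6 and 9.73 CPM under HG-NC against 6.44, 6.18 and 11.3 CPM under HG-OE. HG-OE replicates 1 and 2 were below HG-NC and replicate 3 above it, and the log2 fold change of -0.35 (SE 0.182, edgeR adjusted p = 0.129) became -0.68 (1.42e-06) without replicate 3. DCN, decorin, was not tested, with 3, 0 and 3 counts under HG-NC against 7, 3 and 3 counts under HG-OE. The summed level of the 5 genes was 19.0 ± 0.397 FPKM in HG-NC and 13.5 ± 1.73 FPKM in HG-OE (mean ± SD, 3 libraries each), and the libraries of the groups did not overlap. By library it was 19.5, 18.8 and 18.8 FPKM in HG-NC and 12.8, 12.2 and 15.5 FPKM in HG-OE, with HG-OE replicate 3 nearest to HG-NC. Without that library all 4 genes tested passed as lower, against 27.2% of all genes, with a median log2 fold change of -0.64 in place of -0.50.

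The 7 cell surface proteoglycans changed little, with log2 fold changes between -0.12 and 0.40. None was called, 3 passed as higher and 1 as lower, against 25.9% of all genes in each direction, and 3 did not pass. SDC4 made up 31.5% of the summed FPKM of all members in HG-NC and 31.1% in HG-OE. Its libraries had 1267, 1219.8 and 1206 CPM under HG-NC against 1230.2, 1208 and 1142 CPM under HG-OE, with overlapping groups and a log2 fold change of -0.04 (SE 0.0373, edgeR adjusted p = 0.340). SDC2, with 242, 238 and 247 CPM under HG-NC against 230.2, 221 and 234 CPM under HG-OE, had separate groups and -0.09 (SE 0.0381, edgeR adjusted p = 0.0701), and passed without HG-OE replicate 3, at -0.10 (0.0182).

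SDC1, the syndecan of epithelia, had 184, 189 and 185 CPM under HG-NC against 168, 178 and 169.6 CPM under HG-OE and a log2 fold change of -0.12 (SE 0.0389, edgeR adjusted p = 0.0208), which did not pass when any one of HG-NC replicate 2, HG-NC replicate 3 or HG-OE replicate 1 was left out. SDC3 did not pass, at 0.06 (edgeR adjusted p = 0.400). Of the glypicans, which are held by a lipid anchor, the 3 members GPC1, GPC4 and GPC6 were higher. GPC2, not a member and named after its value was seen, was lower, with a log2 fold change of -0.53 (SE 0.109, edgeR adjusted p = 0.00108), and the sign of GPC3 turned with HG-OE replicate 3. GPC4 had 122, 112 and 115 CPM under HG-NC against 127, 136 and 123 CPM under HG-OE, with the groups hardly apart and a log2 fold change of 0.14 (SE 0.0480, edgeR adjusted p = 0.0223), which did not pass without HG-NC replicate 2, HG-NC replicate 3 or HG-OE replicate 2. GPC1 and GPC6 had 0.40 (SE 0.0613, edgeR adjusted p = 0.000102) and 0.26 (SE 0.0576, edgeR adjusted p = 0.00178).

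**Figure D4:**
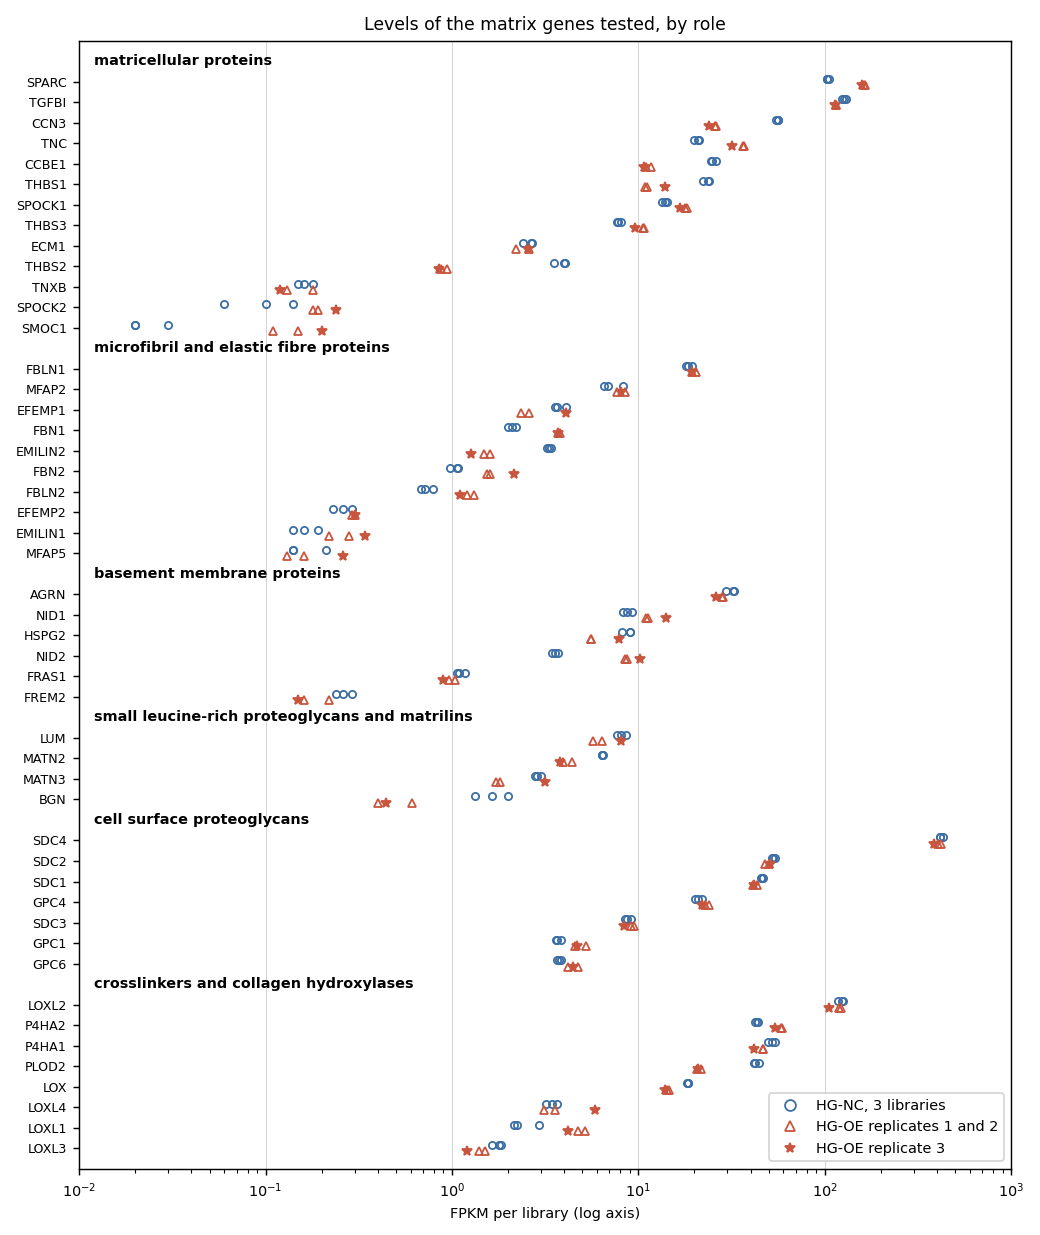
FPKM of each library (log axis) for the 48 members tested, by role and sorted by mean level; circles are HG-NC, triangles HG-OE replicates 1 and 2, and stars HG-OE replicate 3. Levels span from about 0.02 FPKM for SMOC1 in HG-NC to 421 FPKM for SDC4, and the differences between groups are small beside the differences between genes.

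The 8 crosslinkers and collagen hydroxylases were all tested. Of these 8, 2 passed as higher and 4 as lower, against 25.9% of all genes in each direction, and 2 did not pass. PLOD2 (chromosome 3, 146035139 to 146163725, minus strand), the lysyl hydroxylase that acts on the ends of collagen chains and so sets the kind of crosslink, had 380.0, 359 and 359 CPM under HG-NC against 186, 180.2 and 181 CPM under HG-OE. The groups were wide apart, and the log2 fold change was -1.005 (SE 0.0389, edgeR adjusted p = 5.10e-10), at the edge of 2-fold. It came just under 2-fold without HG-OE replicate 3 (-0.999), HG-OE replicate 2 or HG-NC replicate 1, and with only genes of at least 10 counts in every library. The lowest and highest of its values with a library left out were -1.02 and -0.97.

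The prolyl 4-hydroxylase subunits, which stabilize the collagen helix, moved apart. P4HA2 had 499.5, 481 and 488 CPM under HG-NC against 667, 681 and 623 CPM under HG-OE and a log2 fold change of 0.42 (SE 0.0400, edgeR adjusted p = 1.25e-06). P4HA1 had 188, 171 and 179 CPM under HG-NC against 162, 164 and 146 CPM under HG-OE, all 3 HG-OE libraries being lower, and -0.19 (SE 0.0501, edgeR adjusted p = 0.00601). In FPKM, P4HA1 stood above P4HA2 in HG-NC (51.9 ± 2.38 against 43.2 ± 0.785) and below it in HG-OE (45.0 ± 2.72 against 57.4 ± 2.58).

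The lysyl oxidases also moved in both directions. LOXL2, the most abundant at 122 ± 3.41 FPKM in HG-NC and 116 ± 9.12 FPKM in HG-OE (mean ± SD), had 793, 828 and 831 CPM under HG-NC against 821, 813 and 712 CPM under HG-OE, with overlapping groups and a log2 fold change of -0.06 (SE 0.0495, edgeR adjusted p = 0.302). LOXL1, which acts on elastin, had 8.81, 9.05 and 11.8 CPM under HG-NC against 19.3, 21.3 and 17.2 CPM under HG-OE and a log2 fold change of 0.96 (SE 0.116, edgeR adjusted p = 1.22e-05). It was past 2-fold without HG-OE replicate 3 (1.03) or without HG-NC replicate 3 (1.11). LOXL1-AS1 on the opposite strand moved the other way, with -0.45 (edgeR adjusted p = 0.000347).

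LOX, the founding enzyme of the family, had 115, 115 and 114 CPM under HG-NC against 91.7, 90.7 and 88.1 CPM under HG-OE and was lower in HG-OE, with a log2 fold change of -0.35 (SE 0.0389, edgeR adjusted p = 5.53e-06). LOXL3 had -0.35 (SE 0.114, edgeR adjusted p = 0.0210) and did not pass without HG-NC replicate 2 or HG-NC replicate 3. LOXL4 had 12.9, 13.8 and 14.6 CPM under HG-NC against 14.4, 12.7 and 23.8 CPM under HG-OE, where HG-OE replicate 3 alone stood above HG-NC, and its log2 fold change of 0.30 (SE 0.175, edgeR adjusted p = 0.170) was -0.02 without that library. It passed as higher without HG-OE replicate 2, at 0.47.

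To show what the surrounding chromosome did, each member is set beside its neighbours, the other genes within 10 Mb with a mean of at least 10 counts, by the median of their log2 fold changes. SPARC, P4HA2, SPOCK1 and FBN2 lie on chromosome 5, where these medians were 0.38, 0.28, 0.28 and 0.26. Less that median, their log2 fold changes were 0.27, 0.14, 0.08 and 0.53. TGFBI and LOX lie on the same chromosome among neighbours at 0.29 and 0.26 and were lower, at -0.42 and -0.61 less those medians. The largest neighbour median was at FBLN2, with 0.47, which left 0.28.

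Among the members called, the median of neighbours was -0.14 around NID2, -0.24 around THBS2, 0.21 around EMILIN2 and 0.23 around BGN, and less these medians the log2 fold changes were 1.51, -1.86, -1.39 and -1.99. PLOD2 (-0.86) and CCN3 (-0.99) came under 2-fold on this scale, and EMILIN1, with neighbours at -0.29, came past it at 1.06. The part of the neighbourhood in these changes was not tested.

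**Figure D5:**
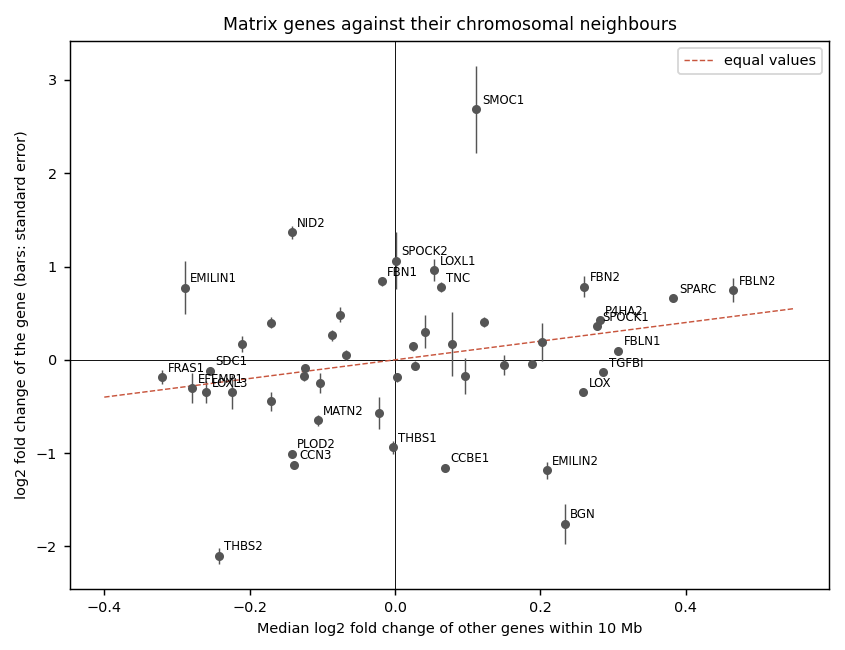
Log2 fold change of the 48 members tested (bars: standard error) against the median of their neighbours within 10 Mb (log2 fold change), with equal values on the dashed line. NID2, THBS2, BGN and EMILIN2 lie far from the line on the side opposite to their neighbours or well beyond them, while SPOCK1, P4HA2 and SDC1 lie near it.

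The wider pathway was followed in 108 partner genes: other matrix glycoproteins, other proteoglycans, enzymes of glycosaminoglycan synthesis and editing, and other genes of collagen modification and folding. Of these, 72 were tested, 27 passed as higher (37.5%), 19 as lower (26.4%) and 26 did not pass, against 25.9% in each direction over all genes, and the median log2 fold change was 0.072. Without HG-OE replicate 3, 29 passed as higher and 18 as lower, against 26.7% and 27.2% of all genes. Against 3.69% and 2.13% of all genes, 3 were called higher and 1 lower. LTBP1, which binds latent TGF-beta to microfibrils, had 1.42, 1.63 and 0.716 CPM under HG-NC against 3.79, 3.16 and 6.11 CPM under HG-OE and a log2 fold change of 1.80 (SE 0.296, edgeR adjusted p = 0.000176). It was 1.48 without HG-OE replicate 3, its highest library. CHSY3, a chondroitin sulfate synthase, had 8, 10 and 9 counts under HG-NC against 24, 29 and 44 counts under HG-OE and 1.71 (SE 0.344, edgeR adjusted p = 0.000877), and 1.43 without that library.

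GPC3, the glypican of fetal liver, had 41, 40 and 29 counts under HG-NC against 29, 20 and 1171 counts under HG-OE. Its log2 fold change of 3.34 (SE 1.11, edgeR adjusted p = 0.0218) came from HG-OE replicate 3 alone, and without that library it was -0.70 (0.0563). GPC3 was also not called when any 1 HG-NC library was left out. CCN5 was called without HG-NC replicate 2 or HG-OE replicate 3, and SULF2 without HG-OE replicate 1. HS3ST1, which adds the rare sulfate of heparan chains that bind antithrombin, had 7.47, 8.13 and 9.48 CPM under HG-NC against 2.79, 3.02 and 3.93 CPM under HG-OE and was the only partner gene called lower, with -1.36 (SE 0.152, edgeR adjusted p = 5.61e-06).

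The partner genes named from here on were chosen after their values were seen. Among the 15 other matrix glycoproteins tested, 4 passed as higher and 3 as lower, against 25.9% of all genes in each direction. CCN1 and CCN2, relatives of CCN3, were both lower, with log2 fold changes of -0.60 (SE 0.0336, edgeR adjusted p = 1.17e-08) and -0.60 (SE 0.0498, edgeR adjusted p = 3.78e-07), and FN1, fibronectin, had -0.25 (SE 0.0362, edgeR adjusted p = 6.76e-05). LTBP2 was higher, with 0.70 (SE 0.0592, edgeR adjusted p = 4.82e-07). Of the 5 other proteoglycans tested, 2 passed as higher (GPC3 and TSKU) and 1 as lower (GPC2), against the same 25.9% of all genes. Their median log2 fold change was 0.025. Without HG-OE replicate 3, TSKU passed as higher and GPC2 as lower, and the median was -0.52. TSKU (tsukushi) had 0.94 (SE 0.0722, edgeR adjusted p = 1.91e-07).

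Among the 32 genes of glycosaminoglycan synthesis and editing tested, 11 passed in each direction, against 25.9% of all genes in each. The chondroitin polymerizing factors CHPF and CHPF2 had log2 fold changes of 0.47 and 0.89, and the chondroitin sulfotransferases CHST11 and CHST12 had 0.55 and 0.22. Of the enzymes that build or sulfate the heparan chain, EXT2, EXTL3 and NDST1 were higher, with 0.15, 0.57 and 0.43, and EXT1 and HS2ST1 lower, with -0.12 and -0.14. Less the medians of their neighbours within 10 Mb, these 5 genes were at 0.077, 0.57, 0.012, 0.028 and -0.078. EXT1 had overlapping groups (edgeR adjusted p = 0.0482) and did not pass without HG-OE replicate 3 (-0.079, edgeR adjusted p = 0.0980). The heparan sulfate 3-O-sulfotransferases HS3ST3A1 and HS3ST3B1 had -0.50 and -0.35, the heparanase gene HPSE -0.89, and DSE, which converts chondroitin to dermatan sulfate, -0.88. The uronyl 2-sulfotransferase gene UST had -0.70, and CHST14, which sulfates dermatan, had 0.40. The neighbours of DSE and HPSE within 10 Mb had medians of -0.34 and -0.34. In collagen modification and folding, 20 genes were tested, 10 passed as higher and 4 as lower, against 25.9% of all genes in each direction. P3H1, CRTAP and PPIB, which together form the prolyl 3-hydroxylase complex, had 0.33, 0.78 and 0.26, the collagen chaperone SERPINH1 had 0.36, and BMP1, which trims procollagen and activates lysyl oxidase, had 0.73. The collagen genes named are all higher ones, while the log2 fold changes of the 20 genes tested ran from -0.43 to 0.78. All of the genes named in this paragraph passed the test, with the neighbours of CRTAP at 0.43.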

How the data were processed

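Poly(A) RNA of HK-2 cells was sequenced from directional libraries, 3 of HG-NC and 3 of HG-OE. The authors aligned trimmed reads to GRCh38 with HISAT2 and deposited whole-number counts of read pairs per gene without normalization, and FPKM values computed from them by the authors. Batch correction by ComBat_seq is named in the study's methods without saying if it entered the counts, and the strand setting of the counting is not stated. Samples were grouped by their labels. Mannitol libraries were not analysed here.

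Counts were compared in R 4.3.3 with edgeR 4.0.16 (quasi-likelihood test, TMM factors of 0.997 to 1.00, default low-count filter, Benjamini-Hochberg adjustment). The filter kept 17142 of 31831 genes, the biological coefficient of variation was 0.0683, and a call needed an adjusted p under 0.05 and a 2-fold change. The steps were tested on simulated counts in which every gene had the same relative spread and no library stood apart. That test therefore cannot speak for the effect of HG-OE replicate 3. Totals of 25507595 to 29444841 counts per library set the precision, and a count of 0 allows up to 3 counts by counting error alone. Positions came from GENCODE release 44 and promoters from RefSeq.

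The members and lists were chosen with earlier results of these data known. All 53 members are accounted for. Members called and the 4 with the highest mean FPKM in each role are given for every library, and every partner gene called is named. Values of THBS1, THBS3, LOX, LOXL1, LOXL4, FBN2 and EMILIN1 by library were added to show where single libraries matter. Alternatives were the size factors and Wald test of DESeq2 1.42.0, other count filters, the replicate number as a block, limma 3.58.1 on log2(FPKM + 1) or log2(FPKM + 0.1), each library left out, and removal of the median of neighbours within 10 Mb.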

Additional observations from a re-analysis of the deposited data

How the results depend on the processing

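The direction of every member called was the same under all alternatives that gave it a value. The number of members called higher was 3, against 1 with limma on log2(FPKM + 1) with or without its filter and on log2(FPKM + 0.1), and 5 with no low-count filter, where SMOC2 and THBS4 came in. Members called lower were 6, against 3 with limma on log2(FPKM + 1) with or without the filter, a scale that shrinks changes of low genes. Partner genes called higher were 3, against 1 with log2(FPKM + 0.1), 0 with log2(FPKM + 1) with or without the filter and 6 with no low-count filter. Partner genes called lower were 1, against 0 with log2(FPKM + 1) with or without the filter. The median log2 fold change of the members, -0.051, moved to 0.091 with the Wald test of DESeq2 and 0.081 with no low-count filter, both over 53 members, to 0.0095 with limma on log2(FPKM + 1) without a filter, and to 0.014 with the median of neighbours removed, where calls used the adjusted p of the original fit.

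With 1 library left out, members called higher ranged from 2 to 4 and lower from 5 to 6, and members past adjusted p from 15 to 17 higher and from 13 to 20 lower. The median ranged from -0.059 to -0.025, partner genes called higher from 2 to 4 and lower from 1 to 1, and the log2 fold change of HNRNPF from 0.46 to 0.50. The sign changed with neighbours removed for FBLN1 (-0.21), EFEMP2 (-0.0082), FRAS1 (0.14), SDC1 (0.14) and SDC2 (0.036), without HG-OE replicate 1 for ECM1 (0.017), and without HG-OE replicate 3 for MFAP5 (-0.18), LOXL4 (-0.023) and GPC3 (-0.70). Over the libraries left out in turn, ECM1 reached -0.10 (without HG-OE replicate 2), MFAP5 0.39 (without HG-NC replicate 2), and LOXL4 0.47 and GPC3 3.90 (both without HG-OE replicate 2). Beyond the construction named, the cause was not tested.

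Libraries of the same number did not deviate together between the groups (correlations of -0.027, 0.030 and -0.0010). This cannot tell if they shared a batch, as batch correction, if it entered the counts, could have removed such a deviation. With the replicate block, 17 members were higher and 18 lower at adjusted p, LUM being the addition, and the calls were the same genes. With 3 libraries a group and 1 cell line, and with HG-OE replicate 3 apart from the other libraries, members under about 50 counts, such as SMOC1, SPOCK2 and EMILIN1, are the least certain, as are genes overlapped by an antisense gene.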
